A study of Mus musculus with 12 samples.

Results

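Mitochondrial ribosomal proteins are described here through 77 genes, which are 77 of the 38924 gene rows in the deposited table of transcript abundance. A row was a member when its Ensembl identifier belonged, in the GENCODE annotation of mm10, to a protein-coding gene whose symbol is Mrpl or Mrps followed by a digit. The 77 genes comprise 48 Mrpl genes, named for the large ribosomal subunit, and 29 Mrps genes, named for the small subunit. The annotation holds 78 such genes, and Mrpl33 was not analysed here. Another 5 rows carry such a symbol but are pseudogenes (Mrps36-ps1, Mrps36-ps2, Mrps36-ps3, Mrpl23-ps1 and Mrpl48-ps); they were not members, and reads could be shared between them and their parent genes.

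The values come from bulk RNA-seq of 3 progenitor types sorted from the marrow of C57Bl/6J females, an inbred mouse strain, with 4 libraries per type, 2 in each of 2 labelled batches. Lymphoid-primed multipotent progenitors (LMPP; Lin- Sca1+ cKit+ CD150- CD34+ Flk2hi) can still give rise to lymphoid and myeloid cells. Common lymphoid progenitors (CLP; Lin- Sca1lo cKitlo IL7Ra+ Flk2+) give rise mainly to lymphocytes, and granulocyte-monocyte progenitors (GMP; Lin- Sca1- cKit+ CD150- CD34+ FcgR+) to granulocytes and monocytes. All 3 were sorted after depletion of cells bearing CD3e, CD11b, B220, Gr-1 or TER-119. The labels give no treatment and no age for these libraries, and do not say if separate mice gave the libraries of a type, so the p-values reflect no more than the spread among these libraries, and that spread may be technical. Values are in TPM, a unit of transcript abundance that is divided by transcript length and scaled to the same total in each library. TPM keep no read totals, so the depth behind each value is unknown.

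The mitochondrial ribosome translates the few messenger RNAs that the mitochondrial genome encodes, all of them for subunits of the respiratory chain and the ATP synthase. Its ribosomal RNAs are transcribed inside the organelle, whereas every one of its proteins is encoded in the nucleus, made on cytosolic ribosomes and imported. Some of these proteins descend from proteins of the bacterial ribosome, and others were added during the evolution of mitochondria. By the current naming of ribosomal proteins, 45 of the 77 genes encode proteins named after a bacterial counterpart and 32 encode proteins named as mitochondria-specific; Mrps18a and Mrps18b are among the 32, although they are related to Mrps18c, the counterpart of a bacterial protein. Names and places do not always match: the products of Mrps30 and Mrps18a sit in the large subunit, and Mrps36 is not a stable subunit of the ribosome.

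Both CLP libraries of batch 2 and 1 LMPP library stood apart before any comparison. In the CLP libraries of batch 2 Flt3, which encodes the gate protein Flk2, was at 8.91 and 17.0 TPM, against 138.3 and 146.1 TPM in batch 1. Cd34 stood at 17.0 and 14.9 TPM there, against 111.3 and 163.8 TPM in batch 1. Il7r, the other defining gene of the CLP gate, was at 76.6 and 129.8 TPM in batch 2. The summed level of 7 pre-B genes was 4255.7 and 5341.6 TPM in these libraries. It was 798.9 and 8.29 TPM in replicates 1 and 2 of CLP in batch 1, and at most 53.4 TPM in LMPP and GMP. The summed level of 12 proliferation genes was 4392.9 and 4573.3 TPM in the CLP libraries of batch 2, against 1382.6 to 2275.6 TPM in the other 10. Replicate 1 of batch 2 in LMPP and in CLP held 28212 and 13447 TPM of 5 erythroid genes, mostly haemoglobin, and 23079 and 10620 TPM of 5 neutrophil genes; the other libraries held at most 2455.6 and 1724.3 TPM. Of the T cell markers, Cd3d and Cd3g were at 0 in all 4 GMP libraries, and Cd3e, Cd3d and Cd3g together reached at most 12.2 TPM. For the 77 genes, calls and medians of the type comparisons are also given without these libraries. For the batch difference of CLP, whose batch 2 consists of 2 of these libraries, only 1 of them can be left out at a time. The median batch difference of the 77 genes in LMPP was -0.42, and -0.445 without replicate 1 of LMPP in batch 2. Values for other gene lists, for neighbouring genes and for GC content were not repeated without these libraries. In these bulk samples fewer cells of a type and less RNA per cell cannot be told apart.

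All 77 genes were at 1 TPM or more in every library. Their median level, as a mean over the 12 libraries, was 32.1 TPM, against 11.3 TPM for the 12718 genes that passed the filter of at least 1 TPM in at least 4 libraries. The levels spanned a 19.9-fold range, and 47 of the 77 genes lay between 20 and 60 TPM. Genes of the large subunit had a median of 32.1 TPM and those of the small subunit 35.3 TPM; proteins with a bacterial counterpart had a median of 36.5 TPM and mitochondria-specific ones 27.2 TPM. The coefficient of variation over the 12 libraries ran from 10.7% to 55.5%, with a median of 28.6%. Although the proteins enter one particle, their transcripts were thus measured at unequal levels per transcript length.

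The highest levels belonged to Mrps21, Mrpl42, Mrps14 and Mrpl17, at 160.9, 144, 139.7 and 130.3 TPM on average. These 4 genes held 17.5% of the summed level of all 77. Mrps21 and Mrps14 encode small-subunit proteins with bacterial counterparts, Mrpl17 a large-subunit protein with one, and Mrpl42 a mitochondria-specific protein. The lowest levels belonged to Mrpl35 (8.09 TPM), Mrpl1 (9.07 TPM), Mrpl45 (9.42 TPM) and Mrpl38 (11.0 TPM), all of the large subunit; Mrpl45 is the subunit that holds the ribosome at the inner membrane. For Mrpl35 the LMPP libraries ranged from 5.61 to 9.80 TPM, the CLP libraries from 4.21 to 9.94 TPM and the GMP libraries from 7.34 to 10.8 TPM, so that its libraries of the 3 types overlapped. For Mrpl42 the ranges were 88.8 to 156.5 TPM, 98.2 to 210.8 TPM and 141.5 to 176.4 TPM in the same order, and its types overlapped as well.

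The start regions of the genes were read because many nuclear genes for mitochondrial proteins carry sites for NRF1, for the ETS-family factor GABP and for YY1. RefSeq windows on GRCm38.p6, from 250 bases before to 50 bases after the start, were found for 68 of the 77 genes; the other 9 (Mrpl13, Mrpl15, Mrpl19, Mrpl38, Mrpl4, Mrpl54, Mrps28, Mrps34 and Mrps35) were not searched. The following lines show the 120 bases before the start, 5′ to 3′ on the strand of the gene. Only NRF1, ETS and YY1 matches are in capitals, and SP matches, counted below, are in lower case. Mrpl41 apart, the genes shown were chosen because the test below found them lower in LMPP than in GMP. They also hold a match in capitals and have no protein-coding gene starting within 1000 bases on the opposite strand. Mrpl12, Mrpl17 and Mrps21 are shown for an NRF1 match, Mrpl58 for an ETS match, and Mrpl41 as a gene with no match to these motifs in the stretch shown. The stretches are chr11:120484517-120484636 on the + strand for Mrpl12, chr7:105811088-105811207 on the - strand for Mrpl17, chr3:95871515-95871634 on the - strand for Mrps21, chr11:115403632-115403751 on the + strand for Mrpl58 and chr2:24975099-24975218 on the - strand for Mrpl41.
Mrpl12: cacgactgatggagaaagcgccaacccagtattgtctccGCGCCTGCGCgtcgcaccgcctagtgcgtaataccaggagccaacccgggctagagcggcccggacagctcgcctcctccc
Mrpl17: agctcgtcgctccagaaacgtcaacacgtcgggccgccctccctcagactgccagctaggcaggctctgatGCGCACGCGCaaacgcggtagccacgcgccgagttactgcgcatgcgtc
Mrps21: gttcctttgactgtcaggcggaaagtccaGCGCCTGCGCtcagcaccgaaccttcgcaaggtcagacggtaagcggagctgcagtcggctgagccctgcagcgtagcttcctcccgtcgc
Mrpl58: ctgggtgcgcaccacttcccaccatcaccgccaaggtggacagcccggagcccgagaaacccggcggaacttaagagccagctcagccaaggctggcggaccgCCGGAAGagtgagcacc
Mrpl41: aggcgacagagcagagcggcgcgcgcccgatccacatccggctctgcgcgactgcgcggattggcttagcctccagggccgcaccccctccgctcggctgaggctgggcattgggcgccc

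Over the whole windows and on both strands, the NRF1 motif (GCGCA, then any base, then GCGC) was found in 13 of the 68 genes (19.1%), in 5.2% of all 27025 genes with a window and in 12.3% of the 8842 tested protein-coding genes with one. The ETS motif CCGGAAG was found in 25 (36.8%, against 9.9% and 21.8%), and the YY1 motif AAGATGGCG in 8 (11.8%, against 1.6% and 3.9%). At least one of the 3 was in 40 genes (58.8%, against 15.1% and 33.7%); CCGGAAG and AAGATGGCG can share the letters AAG, so 1 run can match both. The SP motif GGGCGG was found in 34 (50%, against 38.2% and 68.8%), the E-box CACGTG in 5 (7.4%, against 8.1% and 12%) and TATAAA in 5 (7.4%, against 15.7% and 8.2%). A match is a run of letters and not a measured binding site, and a window without one says only that these letters are not in it.

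Summed over the 77 genes, every GMP library was above every LMPP and CLP library. The LMPP sums were 3074.8 and 3375.4 TPM for the batch 1 pair and 2451.8 and 2536.1 TPM for the batch 2 pair. For CLP the pairs were 3271.9 and 3188.4 TPM, then 3358.3 and 3152.7 TPM. For GMP they were 4030.5 and 4007.9 TPM, then 3445.4 and 3435.0 TPM. The lowest values were thus the LMPP libraries of batch 2 and the highest the GMP libraries of batch 1, and the means of LMPP, CLP and GMP were 2860 ± 441, 3243 ± 91.8 and 3730 ± 334 TPM (SD, n = 4). Both subunits showed this: the large-subunit sums of LMPP, CLP and GMP were 1524.3 to 2111.7, 1909.9 to 2119.1 and 2144.7 to 2466.3 TPM. The small-subunit sums were 903.3 to 1263.7 TPM, 1183.5 to 1253.3 TPM and 1290.1 to 1564.3 TPM in the same order. The large sum was 1.54 to 1.81 times the small sum in the 12 libraries, with overlapping ranges in the 3 types.

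**Figure D1:**
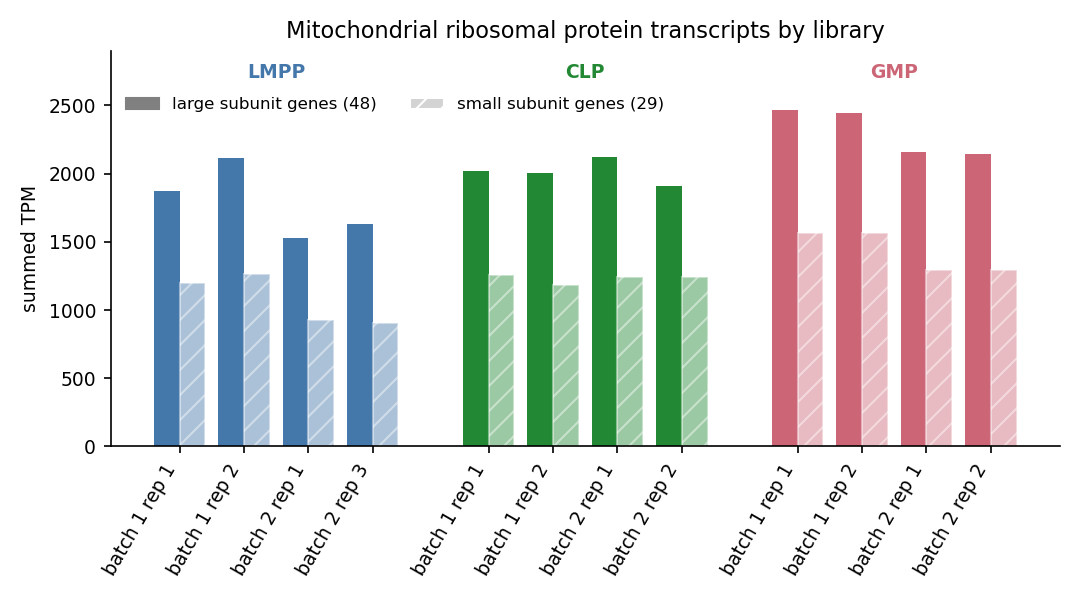
Summed TPM of the 48 large-subunit genes (solid bars) and the 29 small-subunit genes (hatched bars) in each of the 12 libraries, coloured by cell type. The GMP bars start at 2144.7 TPM for the large subunit and 1290.1 TPM for the small subunit, and the LMPP bars of batch 2 are the lowest.

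The share of mitochondrially encoded transcripts and ribosomal RNAs ran opposite to these sums over the types. They took 18.0% to 31.4% of the TPM in LMPP, 18.1% to 22.8% in CLP and 11.9% to 22.6% in GMP, with means of 23.6%, 19.7% and 18.0%. In LMPP, CLP and GMP the share was also higher in batch 2 (28.2%, 20.9% and 21.7% on average) than in batch 1 (19.0%, 18.5% and 14.2%). The sums of the 77 genes were higher in batch 1 in LMPP and GMP. In CLP the mean sum was 3230 TPM in batch 1 and 3256 TPM in batch 2, so it did not run opposite to the share. With these transcripts left out of the totals, the 77 genes held 3267.6 to 4215.0 TPM in the LMPP libraries, 3893.6 to 4149.4 TPM in the CLP ones and 4344.5 to 4803.4 TPM in the GMP ones, so the GMP libraries still lay above the others. On this scale the median log2 difference of the 77 genes was -0.31 for LMPP against GMP, in place of -0.41. The median batch difference was -0.26 in LMPP, -0.085 in CLP and -0.04 in GMP, in place of -0.42, -0.124 and -0.17. By type means, 42 genes had the order LMPP, CLP, GMP from lowest to highest, 19 had CLP, LMPP, GMP, and 9 had LMPP, GMP, CLP; the other 7 had LMPP highest or GMP lowest.

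Among the 3 comparisons of types, LMPP against GMP had the most calls in the 77 genes. On the log2(TPM + 1) scale 70 of 77 had a negative difference, 21 were called lower in LMPP and 1 was called higher, where a call is an adjusted p under 0.05 from limma over all 12718 tested genes. In the background, 7.62% of all tested genes were called lower and 21.3% were called higher. The median difference was -0.41 for the 77 genes and 0.24 for all tested genes, so the members lay 0.66 below the general shift. Large-subunit genes (14 of 48 lower, 1 higher) and small-subunit genes (7 of 29 lower) had like medians, -0.41 and -0.42. Genes with a bacterial counterpart (15 of 45 lower) and mitochondria-specific ones (6 of 32 lower and 1 higher) both had a median of -0.41. Differences in calls between these classes were not tested. The libraries of the types did not overlap for 17 of the 77 genes with LMPP below GMP and for 1 with LMPP above GMP, against 7.76% and 22.7% of all tested genes.

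Mrpl41 (chr2:24974117-24975098, mm10), a mitochondria-specific large-subunit protein, was at 43.2 and 49.9 TPM in LMPP of batch 1, with 25.2 and 19.99 TPM in LMPP of batch 2. Its GMP values were 71.9 and 86.5 TPM in the first batch, 55.01 and 50 TPM in the second. Every GMP library was above every LMPP library, by little between GMP of batch 2 and LMPP of batch 1 and by more within each batch. The log2 difference was -0.97 ± 0.18 (SE; limma, adjusted p = 0.00206).

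Mrpl51 (chr6:125191801-125196269), another mitochondria-specific protein of the large subunit, was at 47.3, 57.9, 30.2 and 23.9 TPM in the 4 LMPP libraries and at 96.0, 100.02, 60.3 and 49.7 TPM in the 4 GMP libraries, in each case with batch 1 first. The lowest GMP value, in batch 2, was under the highest LMPP value, in batch 1, and within a batch the types did not overlap. The difference was -0.95 ± 0.16 (SE; limma, adjusted p = 0.00146). Mrpl36 (chr13:73328513-73332178), a small protein of the large subunit with a bacterial counterpart, was at 57.0, 56.1, 24.7 and 32.8 TPM in LMPP and at 91.2, 84.0, 68.9 and 61.4 TPM in GMP, with no overlap and a difference of -0.89 ± 0.16 (SE; limma, adjusted p = 0.00152). These 3 genes shared the drop of batch 2 in LMPP, where they were also called lower than in batch 1.

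Mrpl12 (chr11:120484613-120489065) encodes the protein of the ribosomal stalk that receives the translation factors. It was at 39.1, 44.7, 15.7 and 17.3 TPM in LMPP and at 74.6, 71.1, 31.7 and 32.3 TPM in GMP. Both types were lower in batch 2. Within each batch every GMP library was above every LMPP library, whereas both LMPP libraries of batch 1 were above both GMP libraries of batch 2. The difference was -0.85 ± 0.21 (SE; limma, adjusted p = 0.0116). Its coefficient of variation over the 12 libraries, 55.5%, was the highest of the 77 genes.

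Another 17 genes were called lower in LMPP than in GMP, with differences from -0.41 to -0.82. They include Mrpl44, an RNase III-like protein (-0.76), Mrpl58, a peptidyl-tRNA hydrolase built into the large subunit (-0.71), Mrps12 of the decoding centre (-0.62), and Mrpl17, Mrps14 and Mrps21 among the 4 highest genes. The other 11 are Mrpl2, Mrpl4, Mrpl16, Mrpl18, Mrpl19, Mrpl20, Mrpl30, Mrps15, Mrps28, Mrps34 and Mrps36. Of the 21 called genes, 17 have a promoter window, and 10 of these 17 hold an NRF1, ETS or YY1 match, beside 40 of 68 for all members with a window. The printed genes other than Mrpl41 were chosen from these called genes, and Mrpl41 is one of them as well. That the printed genes are all called therefore says nothing about the motifs.

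Mrpl52 (chr14:54426909-54429756), a mitochondria-specific large-subunit protein, went the other way. Its LMPP values were 169.5, 132.2, 59.5 and 62.8 TPM and its GMP values 98.9, 85.7, 44.4 and 41.5 TPM, with 125.03, 164.7, 53.6 and 54.7 TPM for CLP. Within a batch both LMPP and CLP were above GMP in every library, and over both batches the types overlapped. The difference was 0.60 ± 0.13 for LMPP against GMP (SE; limma, adjusted p = 0.00638) and 0.48 ± 0.13 for CLP against GMP (adjusted p = 0.0219); after median-ratio scaling of the libraries both stayed positive, 0.32 and 0.37, and neither was called. For CLP against GMP the call was also lost when replicate 2 of CLP in batch 1 or 1 of 3 GMP libraries (replicates 1 and 2 of batch 1, replicate 2 of batch 2) was left out (adjusted p = 0.0512 to 0.0730 in limma). Mrpl52 was the only one of the 77 genes called higher in LMPP or CLP than in GMP.

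The direction held within each batch for most genes: 60 of 77 (77.9%) were lower in LMPP than in GMP in both batches, against 23.4% of all tested genes. The median difference was -0.30 in batch 1 and -0.49 in batch 2. The counts that follow have no share of all tested genes beside them, so they do not show how the members moved against the background. The number called depended on the settings: 49 with median-ratio scaling, which takes the median of all tested genes from 0.24 to -0.00, 37 with quantile normalization, 39 without both CLP libraries of batch 2, 19 without the haemoglobin-rich pair (replicate 1 of batch 2 in LMPP and CLP), 6 with no batch term, 8 in batch 2 alone and 5 without both LMPP libraries of batch 2 (median -0.29), with 11 and 13 called when replicate 1 or replicate 2 of GMP in batch 1 was left out. The median of the 77 genes was -0.69 with median-ratio scaling and -0.36 without the haemoglobin-rich pair, without which Mrpl41, Mrpl51, Mrpl36, Mrpl12 and Mrpl52 differed by -0.95, -0.97, -0.79, -0.86 and 0.62 and were all still called (limma, adjusted p = 0.00252 to 0.0140). Only Mrpl41 and Mrpl51, of the 5 genes described in full here, were called under each of the 26 alternatives.

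**Figure D2:**
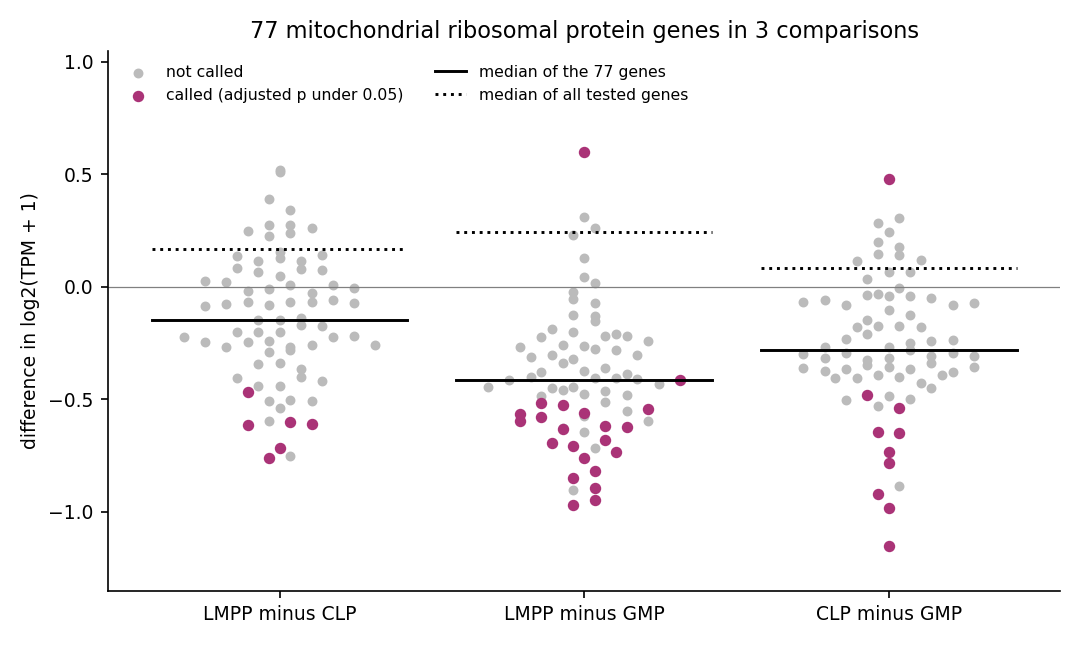
Differences in log2(TPM + 1) of the 77 genes (points) in the 3 comparisons of types, with called genes in purple, the median of the 77 genes as a solid line and the median of all 12718 tested genes as a dotted line. In LMPP minus GMP the points centre on -0.41 and the dotted line is at 0.24.

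CLP against GMP gave fewer calls in the same direction. The difference was negative for 64 of 77 genes, with 9 called lower and 1 higher, against a background of 9.96% called lower and 13.9% called higher; the share of members called lower, 11.7%, was near that background. The median difference was -0.28, and 0.09 for all tested genes. The libraries did not overlap for 9 genes with CLP below GMP, against 9.12% of all tested genes, and for 0 genes with CLP above GMP, against 11.8%. Since this comparison and LMPP against GMP share the GMP libraries, their counts are not independent.

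Mrpl44 (chr1:79776018-79781445) differed most. It was at 15.8, 11.7, 19.5 and 7.29 TPM in CLP and at 26.4, 30.2, 30.8 and 31.0 TPM in GMP, with batch 1 first, so the GMP libraries were close together and all above CLP. The difference was -1.15 ± 0.24 (SE; limma, adjusted p = 0.00512). LMPP lay at 16.8, 16.6, 20.5 and 14.7 TPM, within the range of CLP or just above it.

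Mrpl16 (chr19:11770391-11774960), a large-subunit protein with a bacterial counterpart, was at 36.9, 29.5, 57.2 and 43.7 TPM in CLP and at 75.6, 68.3, 69.6 and 69.5 TPM in GMP. The types did not overlap, and the difference was -0.78 ± 0.20 (SE; limma, adjusted p = 0.0148). Mrpl12 was at 40.3, 48.03, 21.7 and 9.11 TPM in CLP, below GMP within each batch, with a difference of -0.92 ± 0.21 (SE; limma, adjusted p = 0.00867). The other genes called lower were Mrps18b, Mrpl20, Mrpl36, Mrpl19, Mrpl43 and Mrps14.

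Mrps18a, Mrps18b and Mrps18c encode 3 related proteins, of which Mrps18a sits in the large subunit and the other two in the small subunit. In Mrps18a and Mrps18b every LMPP library was below every GMP library, and in Mrps18c these libraries overlapped. Differences between the 3 genes were not tested. Mrps18b (chr17:35910379-35916389) had CLP values of 27.3, 32.2, 37.03 and 10.4 TPM and LMPP values of 28.3, 41.5, 35.6 and 37.0 TPM. Its GMP values of 48.1, 52.1, 47.3 and 48.5 TPM were above all of these, with a difference of -0.98 ± 0.30 for CLP against GMP (SE; limma, adjusted p = 0.0322). Its lowest value, 10.4 TPM, came from replicate 2 of CLP in batch 2. The call was lost under 8 of the 26 alternatives, among them leaving out replicate 1 of CLP in batch 1 (adjusted p = 0.0591 in limma) or any 1 GMP library (0.0577 to 0.0811). For Mrps18a the LMPP libraries were at 34.7, 36.9, 29.4 and 14.8 TPM, the CLP libraries at 53.4, 41.03, 35.7 and 30.3 TPM and the GMP libraries at 44.4, 38.8, 40.2 and 39.4 TPM, and no type comparison was called (adjusted p = 0.0680 in limma for LMPP against GMP). Mrps18c differed by -0.00 between CLP and GMP and by -0.07 between LMPP and GMP (limma, adjusted p = 0.994 and 0.869), and moved instead with the batch in CLP.

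**Figure D3:**
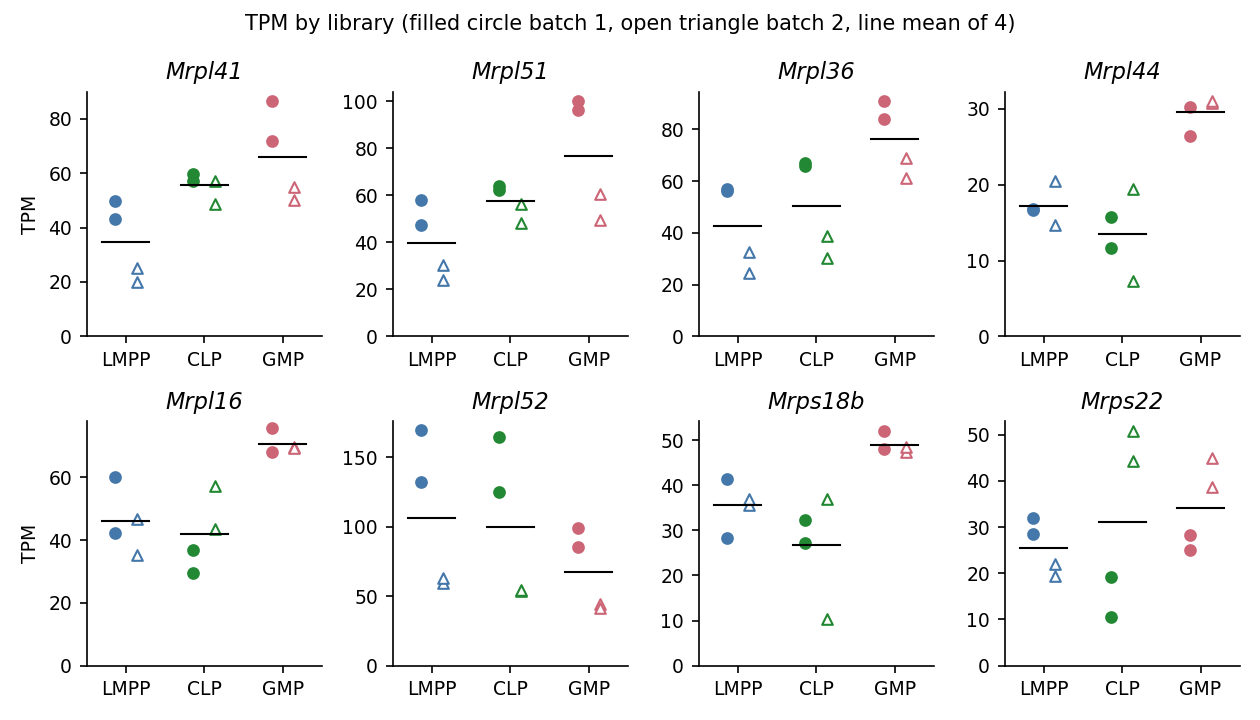
TPM of 8 genes in each library, with filled circles for batch 1, open triangles for batch 2 and a line for the mean of the 4 libraries of a type; each axis starts at 0. In Mrpl41, Mrpl36, Mrpl44, Mrpl16 and Mrps18b every GMP library is above every LMPP library. Mrpl52 falls with batch 2 in all 3 types, whereas Mrps22 rises with batch 2 in CLP and GMP and falls in LMPP.

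Within batches, 44 of 77 genes (57.1%) were lower in CLP than in GMP in both, against 27.9% of all tested genes, with medians of -0.32 in batch 1 and -0.21 in batch 2. The count of 9 lower genes became 18 with median-ratio scaling, 4 with no batch term, 14 in batch 1 alone, 1 in batch 2 alone, 19 without both CLP libraries of batch 2 and 15 without the haemoglobin-rich pair of libraries, and was 5 when replicate 1 or 2 of GMP in batch 1, or replicate 1 of GMP in batch 2, was left out. Without both CLP libraries of batch 2 the median was -0.42, and the differences were -1.02 for Mrpl44, -1.165 for Mrpl16, -0.75 for Mrpl12 and -0.70 for Mrps18b, all still called (limma, adjusted p = 0.00165 to 0.0146).

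Between LMPP and CLP few genes differed. The difference was negative for 52 of 77 genes, 6 were called lower in LMPP and 0 higher in limma (12 and 0 at an unadjusted p under 0.05), against a background of 2.8% called lower and 7.23% called higher. The median difference was -0.15, and 0.17 for all tested genes. It was -0.02 without both CLP libraries of batch 2, -0.01 without the haemoglobin-rich pair, -0.04 without replicate 1 of CLP in batch 2, -0.07 without replicate 3 of LMPP in batch 2, and -0.315 with median-ratio scaling. The libraries did not overlap for 2 genes with LMPP below CLP, against 2.27% of all tested genes, and for 0 genes with LMPP above CLP, against 8.81%. The 6 genes were Mrpl41, Mrps24, Mrpl4, Mrps21, Mrpl51 and Mrpl34.

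Mrpl41 was at 59.6, 57.0, 48.7 and 57.0 TPM in CLP, next to the LMPP values given above, with a difference of -0.76 ± 0.18 (SE; limma, adjusted p = 0.0223). Mrps24 (chr11:5703983-5715680), a small-subunit protein with a bacterial counterpart, was at 20.4, 20.4, 12.3 and 15.1 TPM in LMPP and at 28.6, 32.7, 18.6 and 35.5 TPM in CLP (difference -0.72 ± 0.20, SE; limma, adjusted p = 0.0457). In both genes CLP was above LMPP within each batch. Over both batches 1 CLP library of batch 2 lay within the LMPP range for each gene.

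Mrpl4 (chr9:21002738-21008839), a large-subunit protein with a bacterial counterpart, was at 17.7, 22.6, 25.0 and 27.03 TPM in LMPP and at 43.6, 24.9, 36.7 and 39.4 TPM in CLP, with 1 CLP library inside the LMPP range (difference -0.61 ± 0.17, SE; limma, adjusted p = 0.0427). Mrps21 (chr3:95862634-95871519) had LMPP values of 144.3, 127.2, 131.9 and 84.7 TPM, CLP values of 156.03, 170.04, 182.5 and 232.1 TPM and GMP values of 185.5, 191.7, 172.1 and 152.2 TPM. Every CLP library was above every LMPP library (difference -0.61 ± 0.18, SE; limma, adjusted p = 0.0491), while CLP and GMP overlapped and did not pass the test (adjusted p = 0.818).

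These 6 calls were not stable. Without both CLP libraries of batch 2 the differences of Mrpl41, Mrps24, Mrpl4 and Mrps21 were -0.43, -0.47, -0.72 and -0.30 (limma, adjusted p = 0.169, 0.120, 0.0721 and 0.335), and without the haemoglobin-rich pair they were -0.70, -0.77, -0.64 and -0.66 (adjusted p = 0.0828, 0.0745, 0.0910 and 0.0931). In batch 1 the median difference between LMPP and CLP was 0.06 and in batch 2 it was -0.32, and 23 of 77 genes (29.9%) were lower in LMPP in both batches, against 16.7% of all tested genes; 0 genes were called lower with no batch term, in the fit of these 2 types alone, or without both CLP libraries of batch 2, both LMPP libraries of batch 2 or the haemoglobin-rich pair. Leaving out 1 library gave 0 to 2 lower calls for 11 of the 12 libraries, and 5 without replicate 2 of CLP in batch 1.

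In each type more of the 77 genes had a negative than a positive batch difference (63 of 77 in LMPP, 43 in CLP and 47 in GMP). In LMPP 0 genes were called higher in batch 2 than in batch 1 and 11 lower in limma (0 and 26 at an unadjusted p under 0.05), against a background of 2.19% and 2.42%. In CLP 12 were higher and 14 lower, against 21.3% and 10.7%, and in GMP 1 was higher and 9 lower, against 6.16% and 2.07%. The median differences were -0.42 in LMPP, -0.12 in CLP and -0.17 in GMP, and 0.15, 0.13 and 0.22 for all tested genes. With median-ratio scaling they were -0.54, -0.31 and -0.45, and with quantile normalization -0.61, -0.44 and -0.37. In all 3 types 35 genes (45.5%) were lower in batch 2 and 7 (9.09%) higher, against 13% and 33.2% of all tested genes. With quantile normalization the CLP calls became 3 higher and 27 lower, and with median-ratio scaling 5 higher and 18 lower. The counts also rested on single libraries: with 1 left out, the lower calls were 2 to 17 in LMPP (2 without replicate 2 of LMPP in batch 1, 17 without either CLP library of batch 2), 9 to 24 in CLP (9 without replicate 2 of CLP in batch 1, 24 without replicate 1 of CLP in batch 2; its higher calls became 5 without replicate 2 of CLP in batch 1) and 0 to 15 in GMP (0 to 2 without any 1 GMP library, 15 without either CLP library of batch 2).

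Mrpl14, Mrpl12, Mrpl52, Mrps16 and Mrps12, 5 of the 77 genes (6.49%), were called lower in batch 2 in all 3 types, against 1.22% of all tested genes. Mrpl14 (chr17:45686322-45698495), a core protein of the large subunit with a bacterial counterpart, went in LMPP from 41.7 and 49.6 TPM to 15.1 and 18.4 TPM. In CLP it went from 60.1 and 58.7 TPM to 17.3 and 14.2 TPM, and in GMP from 60.2 and 54.2 TPM to 23.9 and 24.2 TPM. The batches did not overlap in any type, and the differences were -1.39, -1.86 and -1.22 (SE 0.17 each; limma, adjusted p = 0.00185, 7.24e-05 and 0.00376).

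Mrps16 (chr14:20389304-20393634), a small-subunit protein with a bacterial counterpart, was at 69.3 and 57.9 TPM against 28.1 and 25.1 TPM in LMPP, with batch 1 first, at 70.8 and 74.1 TPM against 36.0 and 15.9 TPM in CLP, and at 89.7 and 95.02 TPM against 34.7 and 40.6 TPM in GMP. Its differences were -1.22, -1.55 and -1.28 (SE 0.29 each; limma, adjusted p = 0.0450, 0.00317 and 0.0274). Mrps6 (chr16:92058270-92112227), likewise of the small subunit, was called lower only in CLP, where it went from 28.95 and 26.9 TPM to 14.9 and 6.10 TPM (difference -1.44 ± 0.33, SE; limma, adjusted p = 0.00838); LMPP (28.3, 24.9, 14.0 and 20.6 TPM) and GMP (22.8, 20.9, 13.5 and 14.8 TPM) also had their batch 2 libraries below batch 1. The interaction tests called no difference between types for Mrps6.

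The genes called higher in CLP of batch 2 were led by Mrps22 (chr9:98588730-98601660), a mitochondria-specific protein of the small subunit. Its CLP values were 19.1 and 10.5 TPM in the first batch and 44.2 and 50.9 TPM in the second (difference 1.67 ± 0.25, SE; limma, adjusted p = 8.39e-04). In LMPP it was at 31.9 and 28.4 TPM and then 22.0 and 19.3 TPM, and in GMP at 25.1 and 28.3 TPM and then 44.8 and 38.6 TPM. The batch difference was thus positive in CLP and GMP and negative in LMPP, and that of CLP exceeded that of LMPP by 2.197 ± 0.35 (SE; limma, adjusted p = 0.00805).

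Mrps18c (chr5:100798627-100804471) was at 31.7 and 44.3 TPM in CLP of the first batch and at 90.6 and 125.01 TPM in the second (difference 1.48 ± 0.22, SE; limma, adjusted p = 8.75e-04). Mrps9 (chr1:42851233-42905683), with a bacterial counterpart, was at 16.4 and 15.8 TPM and then 35.9 and 36.1 TPM (1.12 ± 0.21, SE; limma, adjusted p = 0.00277). Mrps27 (chr13:99344786-99415562), a protein of the pentatricopeptide repeat family, was at 9.65 and 6.79 TPM and then 17.2 and 15.8 TPM (0.94 ± 0.29, SE; limma, adjusted p = 0.0303). The batches did not overlap in CLP for any of the 3, and Mrps27 lost the call without replicate 2 of CLP in batch 1 (adjusted p = 0.188 in limma), replicate 1 of CLP in batch 2 (0.0673) or replicate 2 of CLP in batch 2 (0.0589). Mrps22, Mrpl47, Mrps18c, Mrps27, Mrps25 and Mrps9 were the 6 genes whose batch difference was called higher in CLP than in LMPP (7.79%), against 5.9% of all tested genes. With 1 library left out this count was 1 (replicate 2 of LMPP in batch 1) to 12 (replicate 1 of LMPP in batch 2). Only Mrps25 was called higher in CLP than in GMP, against 3.02% (0 calls without any 1 GMP library or either LMPP library of batch 1, 4 without replicate 1 of CLP in batch 2), and 0 were called in either direction between LMPP and GMP in limma (1 higher and 4 lower at an unadjusted p under 0.05), where 2 of all tested genes were called higher and 0 lower.

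The CLP libraries of batch 2 are those with the most pre-B and proliferation transcripts and with little Flt3 and Cd34. Of the 12 proliferation genes, 9 were called higher in CLP of batch 2 than of batch 1 and 0 lower, and all 7 pre-B genes were called higher. Replicate 1 of CLP in batch 2 also held the erythroid and neutrophil transcripts. The part of each in the CLP batch differences of the 77 genes was not tested. Without replicate 2 of CLP in batch 2 the median batch difference of CLP was 0.05, against -0.12 with it. Without replicate 1 of CLP in batch 2, the CLP batch differences were 1.77 for Mrps22, 1.71 for Mrps18c, 1.12 for Mrps9 and 0.89 for Mrps27, and -1.99, -2.15, -2.12 and -2.02 for Mrpl14, Mrpl12, Mrps16 and Mrps6, all still called in limma except Mrps27.

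**Figure D4:**
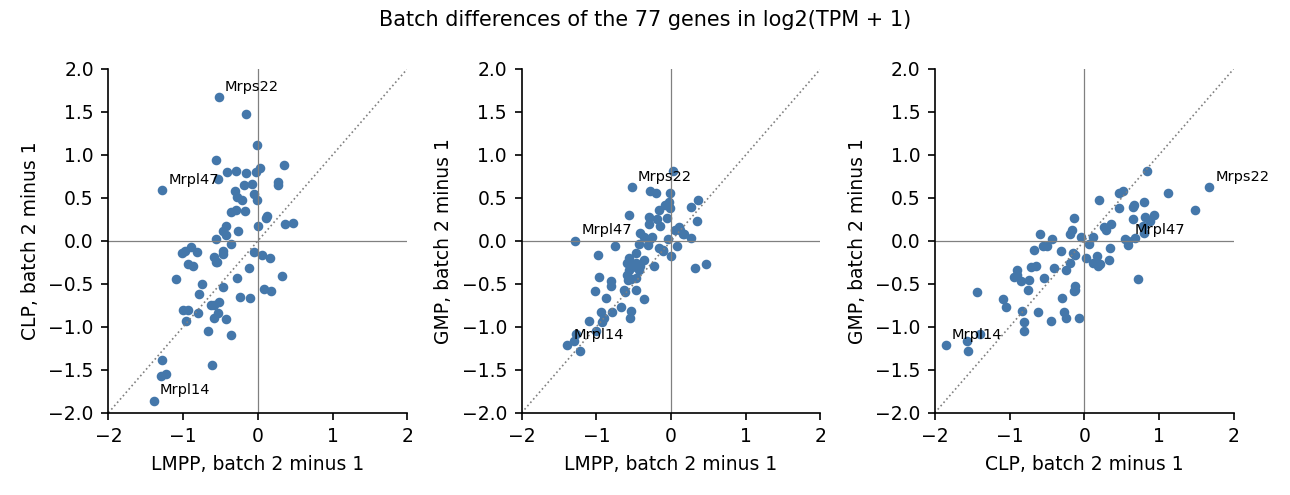
Batch 2 minus batch 1 in log2(TPM + 1) for each of the 77 genes in one cell type against another, with a dotted line of equality. Mrpl14 is near the lower left corner in all 3 panels, and Mrps22 and Mrpl47 lie above the line where CLP is set against LMPP.

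Across the 77 genes the batch differences of separate types, which share no library, ran together. Pearson's r was 0.52 between LMPP and CLP, 0.716 between LMPP and GMP and 0.789 between CLP and GMP, with Spearman's rho of 0.517, 0.723 and 0.781. Over all tested genes r was 0.43, 0.334 and 0.305. The points are genes of the same libraries, which share batch and library preparation and are not independent replicates.

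Transcript GC content also moved with the batch difference. Over the 77 genes Spearman's rho between the batch difference and transcript GC was -0.241 in LMPP, -0.483 in CLP and -0.373 in GMP, and over the 11096 tested protein-coding genes it was -0.133, -0.338 and -0.321. The 26 genes of highest GC (52.7% to 60.6%) had median batch differences of -0.65, -0.67 and -0.58 in LMPP, CLP and GMP. The 25 of middle GC (49.0% to 52.6%) had medians of -0.165, 0.113 and -0.083. The 26 of lowest GC (41.4% to 48.9%) had medians of -0.36, 0.38 and 0.01. In LMPP the middle group thus fell least, and the medians did not follow the order of GC there. In CLP 9 of the 26 high-GC genes were called lower and 1 higher, and of the 26 low-GC genes 1 was called lower and 6 higher. Of the 25 middle genes 4 were called lower and 5 higher. Of all tested genes, whatever their GC, 10.7% were called lower and 21.3% higher in this contrast. For the type comparisons rho was -0.246 for LMPP against CLP, -0.362 for LMPP against GMP and -0.0126 for CLP against GMP, and in all 3 GC groups, from lowest to highest, most genes were lower in LMPP than in GMP (22 of 26, 24 of 25 and 24 of 26). The part of GC in these differences was not tested.

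**Figure D5:**
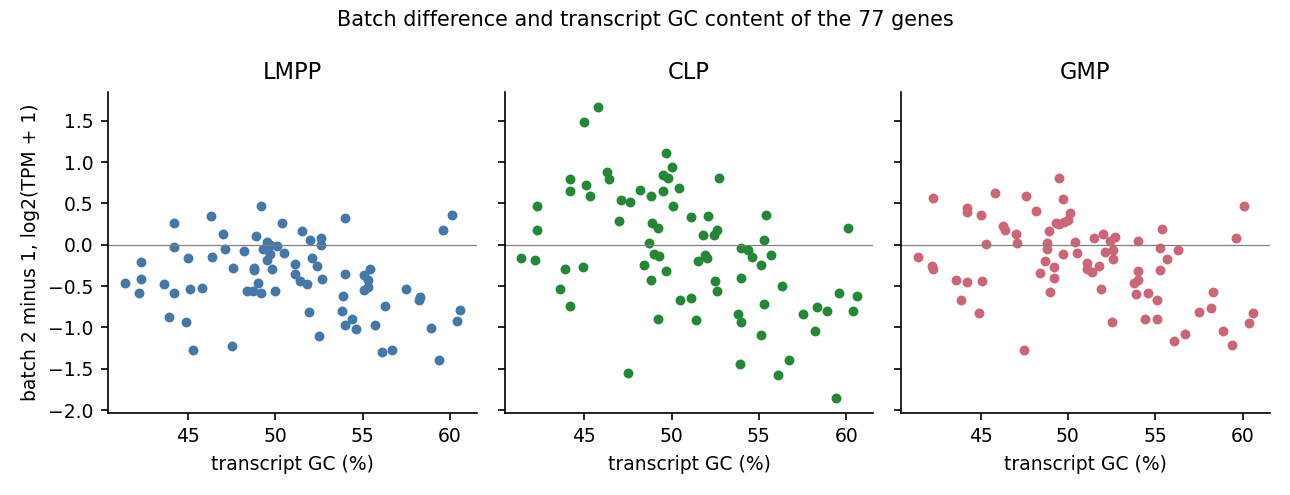
Batch 2 minus batch 1 in log2(TPM + 1) against transcript GC content (%) for the 77 genes in LMPP, CLP and GMP. Above 52.7% GC most points lie under 0 in each type, and in CLP most points under 48.9% GC lie above 0.

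The cytosolic ribosomal proteins, which build the ribosome outside the organelle, are given beside these values. Of 75 genes, 9 were called lower and 1 higher in LMPP than in GMP, with a median of -0.08 beside -0.41 for the mitochondrial set. In this comparison 7.62% of all tested genes were called lower and 21.3% higher. With the batch, 54, 64 and 48 of 75 were called lower in batch 2 in LMPP, CLP and GMP, with medians of -0.84, -1.08 and -0.63. The shares of all tested genes called lower in these contrasts were 2.42%, 10.7% and 2.07%. Of the 13 messenger RNAs encoded by the mitochondrial genome, which the mitochondrial ribosome translates, 0 were called between any pair of types in limma. At an unadjusted p under 0.05, 2 were higher in LMPP than in CLP, 3 were higher in LMPP than in GMP and 0 differed between CLP and GMP. Their median difference was 0.28 for LMPP against GMP, near the 0.24 of all tested genes, whereas that of the 77 genes was -0.41.

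Other nuclear genes of mitochondrial translation were called in both directions in LMPP against GMP, where 21.3% of all tested genes were called higher and 7.62% lower. Of 23 assembly and maturation factors 2 were called higher and 2 lower, with a median of 0.05. Nsun4, a methyltransferase of the small-subunit ribosomal RNA, was higher in LMPP (20.2 ± 10.6 TPM) than in GMP (7.14 ± 1.75 TPM, SD, n = 4, difference 1.23, limma, adjusted p = 0.00824), as was Mrm1, a methyltransferase of the large ribosomal RNA (0.68). Ddx28, an assembly helicase (-0.90), and Mpv17l2 (-0.76) were lower.

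Of 14 matched translation factors, 1 was called higher in LMPP than in GMP and 2 lower, with a median of -0.07. The elongation factors Tufm (LMPP 23.7 ± 9.31 TPM, GMP 39.0 ± 6.04 TPM; SD, n = 4) and Gfm1 (-0.91) were lower, whereas Guf1, a GTPase related to bacterial elongation factor LepA, was higher (26.1 ± 1.51 TPM and 16.4 ± 4.78 TPM). Guf1 and the initiation factor Mtif2 were also called higher in LMPP than in CLP (0.90 and 0.85), and Tsfm was called lower in CLP than in GMP (-0.88). Of 20 genes for mitochondrial tRNA charging, Sars2 (-0.79) and Yars2 (-0.67) were called lower in LMPP than in GMP and Yars2 in CLP than in GMP (-0.83). Of the 5 mitochondrial ribosomal proteins with other names, Aurkaip1 was called lower (-0.76), and Dap3, Ptcd3, Chchd1 and Gadd45gip1 did not pass the test.

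Of 11 regulators of nuclear genes for mitochondria, 3 were called higher in LMPP than in GMP and 0 lower. Of all tested genes, 21.3% were called higher and 7.62% lower. The median was 0.15 for the list and 0.24 for all tested genes. All 3 were also called higher in CLP than in GMP, as were 13.9% of all tested genes. Gabpb1, a subunit of GABP, stood at 55.8 ± 7.18, 57.3 ± 32.1 and 23.7 ± 7.47 TPM (SD, n = 4) for LMPP, CLP and GMP, and Ppargc1a, the coactivator PGC-1alpha, at 5.21 ± 3.59, 2.13 ± 1.79 and 0.063 ± 0.081 TPM. The third was Gabpb2 (0.54). Nrf1 (17.5 TPM in LMPP and 12.1 TPM in GMP) and Gabpa (55.6 and 53.3 TPM) did not pass the test (limma, adjusted p = 0.0868 and 0.759). Of 12 matched genes for mitochondrial RNA synthesis and stability, Mterf2 was called higher in LMPP and in CLP than in GMP (1.25 and 1.22); it and Gabpb2 were chosen after their values were seen.

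By position, 33 of the 77 genes (42.9%) have another protein-coding gene on the opposite strand whose start lies within 1000 bases, against 17.4% of the 11096 tested protein-coding genes. Mrpl46 and Mrps11 are each other's partner, with a gap of -412 bases between their starts, so that they overlap. The partner passed the filter for 30 of the 33. In LMPP against GMP 29 of these 30 members had a negative difference (median -0.46), and 14 of 30 partners did (median 0.04). The partners called lower were Psma2, Ndufs6, Ndufb5 and Sars2, beside Mrpl32, Mrpl36, Mrpl47 and Mrps12, and Pnpla7, beside Mrpl41, was called higher. In this comparison 7.62% of all tested genes were called lower and 21.3% higher. Of the 77 genes 25 overlap another protein-coding gene, and no source used here says if reads were counted by strand, so overlapping pairs such as Mrpl36 and Ndufs6, Mrpl44 and Wdfy1 or Mrpl14 and Tmem63b cannot be told apart where they overlap. The median transcript length of the 77 genes was 1056 bases, against 2098 for tested protein-coding genes, and the median GC content was 50.5% in both.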

How the data were processed

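Bulk RNA-seq of 12 libraries was deposited by the authors as 1 table of TPM per Ensembl gene; per the submitters' processing notes the tools included Bowtie2 2.2.0 and RSEM 1.2.12 with mm10, in an order and with settings not given in the sources used here. Each library's TPM summed to between 999999 and 1000001. RSEM shares reads among similar transcripts, so genes with pseudogene copies are less certain. Another 17 columns matched no sample label and were not used. Symbols, lengths and GC came from GENCODE (37607 identifiers had a symbol).

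The 12718 genes that reached 1 TPM in 4 or more libraries were fitted as log2(TPM + 1), which understates changes of low genes. The fit used limma 3.58.1 (R 4.3.3) and all 12 libraries. The model held cell type and an additive batch term with a variance trend; batch differences within types and their interactions came from a fit of the 6 type-by-batch groups. P-values are two-sided and Benjamini-Hochberg adjusted over all tested genes, with calls under 0.05. The fit was tested on simulated data. Identical columns were not found. Named genes were up to 4 called members with the largest difference in each direction in each type comparison and in the CLP batch contrast, the 4 highest and 4 lowest in TPM, the Mrps18 genes, Mrpl12, and up to 2 called genes per pathway list, comparison and direction. The members, the lists and the tests were chosen with earlier results of these data known. Alternatives covered the pseudocount (0.1), the filter, scaling, the model and left-out libraries; leaving out both LMPP libraries of batch 2 was chosen after seeing the data.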

Additional observations from a re-analysis of the deposited data

Results flagged for a closer look

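In 7 tests the batch difference of a gene differed between types, 6 of the 77 genes (7.79%, against 5.9% of all tested genes) for CLP against LMPP and 1 (1.3%, against 3.02%) for CLP against GMP, shares near or under the background. The batch difference in CLP exceeded that in LMPP by 2.197 for Mrps22, 1.87 for Mrpl47, 1.64 for Mrps18c, 1.502 for Mrps27, 1.25 for Mrps25 and 1.12 for Mrps9 on the log2(TPM + 1) scale (limma, adjusted p = 0.00805, 0.0237, 0.0148, 0.0486, 0.0292 and 0.0417). The batch difference of Mrps25 in CLP exceeded that in GMP by 1.16 (limma, adjusted p = 0.0488). Mrps22 was called under each of its 18 alternatives, whereas Mrps18c lost the call under 1 and Mrpl47 under 4. Mrps27 and Mrps9 each lost it under 15 of 18, and Mrps25 under 10 against LMPP and 13 against GMP.

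Among 87 sets of 4 libraries (the 26 named genes and the 3 sums in each type), 2 held a library far from the other 3, a smaller share than the 1 in 20 that chance gives for 4 like libraries. Each set spans 2 batches that differ, so that share applies only loosely here. Mrpl1 was at 5.09 TPM in replicate 1 of LMPP in batch 2, the library with the haemoglobin transcripts, against 9.63 to 10.2 TPM in the other LMPP libraries. Mrpl44 was at 26.4 TPM in replicate 1 of GMP in batch 1, against 30.2 to 31.0 TPM in the other GMP libraries.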

How the results depend on the processing

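No alternative reversed the 29 differences of single genes that were named, and 10 of them kept their call in every alternative. The median of the 77 genes changed sign in 3 cases: LMPP against CLP was 0.0608 in batch 1 only and 0.0306 without both LMPP libraries of batch 2, and the CLP batch difference was 0.0504 without replicate 2 of CLP in batch 2 (range with 1 library left out -0.148 to 0.0504). The counts of called genes moved more, and the cause was not tested. For the alternatives, here and above, the share of all tested genes called is not given, so these counts describe the members alone.

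In LMPP against CLP, the 6 lower calls became 2 without the filter, 3 without mitochondrially encoded and ribosomal RNA, 1 without the variance trend, 0 with no batch term, with only the types compared, without both CLP or both LMPP libraries of batch 2 and without the haemoglobin-rich pair; in batch 1 only, 1 was lower and 1 higher. In LMPP against GMP, the 21 lower calls became 49 with median-ratio scaling, 37 with quantile normalization, 6 with no batch term, 39 with only the types compared or without both CLP libraries of batch 2, 8 in batch 2 only and 5 without both LMPP libraries of batch 2; the 1 higher call became 0 with median-ratio scaling, with no batch term and in batch 2 only, and 2 without mitochondrially encoded and ribosomal RNA. In CLP against GMP, the 9 lower calls became 18 with median-ratio scaling, 4 with no batch term, 14 in batch 1 only, 1 in batch 2 only, 19 without both CLP libraries of batch 2 and 15 without the haemoglobin-rich pair; the 1 higher call became 0 with median-ratio scaling, with no batch term and in batch 2 only.

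With the replicate block, that is libraries paired by batch and replicate number, LMPP against CLP had 0 lower calls, LMPP against GMP 9 and CLP against GMP 8 with 0 higher. The main fit did not pair the libraries. The deviations of same-numbered libraries correlated at -0.106 to 0.169. With 2 libraries per type and batch the 2 deviations mirror each other, so these correlations cannot show if same-numbered libraries are paired. The highest correlation was that of replicate 1 of batch 2 in LMPP and CLP, the 2 libraries with the erythroid and neutrophil transcripts.

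For the batch, LMPP had 7 lower calls without the filter, 19 with quantile normalization and 4 without the trend, against 11. CLP had 5 higher with median-ratio scaling and 3 higher and 27 lower with quantile normalization, against 12 and 14. GMP had 19 lower with median-ratio scaling, 15 with quantile normalization and 3 without the trend, against 9, and 0 higher under these 3 and 2 without mitochondrially encoded and ribosomal RNA, against 1. The 6 genes with a higher batch difference in CLP than in LMPP became 3 with quantile normalization, without mitochondrially encoded and ribosomal RNA and without the trend; the 1 gene higher than in GMP became 0 under these 3, with the pseudocount of 0.1 and without the filter.

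With 1 library left out, lower calls ranged from 0 to 5 in LMPP against CLP, from 11 to 30 in LMPP against GMP, and from 5 to 13 in CLP against GMP, with 0 to 1 higher there. Batch calls ranged from 2 to 17 lower in LMPP, from 9 to 24 lower and 5 to 13 higher in CLP, and from 0 to 15 lower and 0 to 2 higher in GMP. A group left with 1 library is assumed to vary like the others. The batch difference of CLP was called higher than that of LMPP for 1 to 12 genes and lower for 0 to 4, and higher than that of GMP for 0 to 4 and lower for 0 to 6. With TPM alone, no depth could be set beside these counts.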
